A study of Homo sapiens with 4 samples.

Results

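The unfolded protein response genes described here are 10 genes that encode its sensors and transcription factors: the 3 sensors ATF6, ERN1 (the protein IRE1) and EIF2AK3 (the protein PERK), the transcription factor genes XBP1, ATF4, ATF5, ATF3, DDIT3 (the protein CHOP) and NUPR1, and PPP1R15A (the protein GADD34). They were chosen by name, with earlier results of these data known. All 10 were matched by Entrez gene ID among the 27685 gene IDs of the files, each on a single row. RNA was measured in NCC-IT-A3, a human embryonal carcinoma line, that is, cultured germ cell tumour cells that resemble pluripotent cells. Barasertib, which blocks the mitotic kinase Aurora B, was given at 100 nM for 4 days before 2 of the 4 libraries were made, and the other 2 are from cells given DMSO, its solvent, for the same time. The cells of both groups grew in RPMI medium with serum, and the labels do not state whether replicate libraries stem from different cultures, so the spread behind each p-value is that between these libraries and may be technical. The labels name the line alone and do not say whether it is a clone.

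The unfolded protein response adjusts the folding capacity of the endoplasmic reticulum (ER) to its load. When unfolded proteins build up in the ER, ATF6 moves to the Golgi and is cut there to release a transcription factor, IRE1 splices the XBP1 message so that it encodes an active factor, and PERK phosphorylates the initiation factor eIF2, which lowers protein synthesis in general while the ATF4 message is translated more. These steps act on proteins, splicing and translation, so the RNA levels below are amounts of message and not measures of how active a sensor or factor was. Bulk RNA has a further limit, that fewer cells of a type and less RNA per cell cannot be told apart.

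The values are TPM, transcript abundance scaled for length to a fixed library total, so levels of different genes can be set side by side. The highest ratio of deposited coverage to FPKM, which estimates the aligned bases, was 4.22 and 4.43 Gb for DMSO and 4.59 and 4.52 Gb for barasertib. The mean read depth per base ran from 5.28 to 6.52 over the libraries for ERN1, the lowest of the 10, and from 1075 to 1331 for ATF4, the highest. All 12 markers of embryonal carcinoma lay at or above a mean of 1 TPM, with summed levels of 6784 to 6928 TPM with DMSO and 7533 to 7606 TPM with barasertib. POU5F1 made up most of that sum, and single markers changed both ways: NANOG, DNMT3B and DPPA4 rose to 154%, 185% and 204% of their DMSO mean, POU5F1 and LIN28A to 109.9% and 118%, and SOX2 and CRIPTO fell to 86.4% and 80.2% (limma, adjusted p under 0.05). Markers of fibroblasts (4 genes) and yolk sac endoderm (5 genes) summed to at most 1.55 TPM in any library, and those of trophoblast (4 genes, CGB5 at 0 in all) to 1.52 to 1.55 TPM with DMSO and 2.51 to 2.81 TPM with barasertib. Of 4 markers of plasma cells, a secretory type with a strong unfolded protein response, JCHAIN, MZB1 and TNFRSF17 were at 0 in every library and IRF4 was at 6.55 to 8.43 TPM. The part of these markers in the results below was not tested.

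With barasertib, 6 of the 10 genes fell, 2 rose and 2 did not pass the test (limma on log2(TPM + 1), Benjamini-Hochberg adjusted p under 0.05 over 13938 tested genes). NUPR1 and ATF5 had the largest falls, to 22.7% and 33.4% of their mean DMSO level, followed by ATF6, XBP1, ATF4 and DDIT3, while ATF3 and PPP1R15A rose to 125% each. Over all tested genes 22.0% were called higher and 7.44% lower, 29.5% in either direction. The count of 2 rises in the 10 genes was therefore near the background. The shares called higher and lower were 12.0% and 12.3% after median-of-ratios scaling, 11.0% and 13.6% with factors from all genes, 11.8% and 11.4% after quantile normalisation, 15.9% and 4.84% without the mean-variance trend and 23.1% and 7.75% with a replicate block. With DMSO replicate 1, DMSO replicate 2, barasertib replicate 1 and barasertib replicate 2 left out in turn, 15.2%, 15.6%, 9.85% and 11.5% were called higher and 4.98%, 4.99%, 4.34% and 4.77% lower. Of the 10 genes, 1 was called higher with any 1 library left out, 6 were called lower without DMSO replicate 2, and 5 without each of the others. The median log2 change was -0.26 over the 10 genes and 0.11 over all tested genes. Median-of-ratios scaling and quantile normalisation shift the latter by -0.11 and -0.12, and the 6 genes that fell did so under these scalings too, whereas 0 of the 10 were called higher under every scaling tried. The libraries of the groups did not overlap for 9 of the 10 genes, ERN1 being the exception, as they did not for 68.8% of all tested genes. Summed over the 10 genes, the level was 1908 and 1883 TPM in the DMSO libraries and 1504 and 1503 TPM with barasertib.

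**Figure D1:**
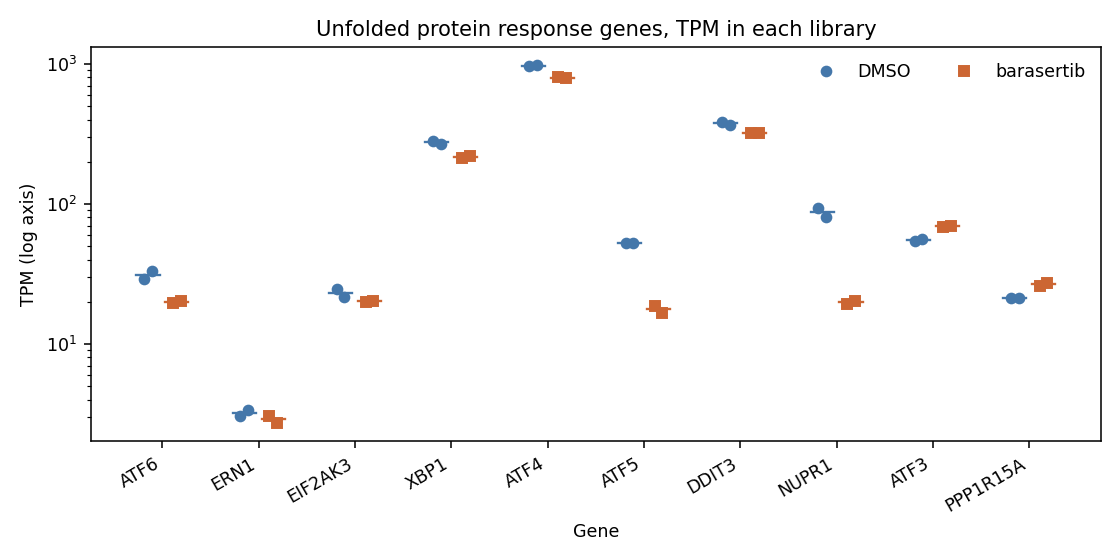
TPM of each gene (log axis) in the 2 DMSO libraries (circles) and the 2 barasertib libraries (squares), with a short line at each group mean. NUPR1 and ATF5 show the widest gaps between the groups, and ERN1, at 2.71 to 3.36 TPM, is the one gene whose groups overlap.

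Among the sensors, ATF6 fell and the other two did not pass the test. ATF6, whose cut form activates ER chaperone genes, was at 29.2 and 33.1 TPM in the DMSO libraries and at 19.6 and 20.2 TPM in the barasertib libraries. Both barasertib libraries lay below both DMSO libraries, a log2 change of -0.62 (95% interval -0.82 to -0.42, limma adjusted p = 0.00437). The gene (ID 22926) spans chr1:161736034-161933860 of hg19, the build of the files.

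ERN1 encodes IRE1, the kinase and endoribonuclease that splices XBP1. It was at 3.06 and 3.36 TPM with DMSO and at 3.07 and 2.71 TPM with barasertib, the lowest level of the 10 genes in both groups. Its log2 change was -0.11 (95% interval -0.45 to 0.22, limma adjusted p = 0.564), and a p that misses the threshold does not show that the level stayed the same. The gene (ID 2081) spans chr17:62120390-62207502. Its paralog ERN2, which is restricted to mucosal epithelia, was listed at 0 in 3 libraries and near 0 in the other one, and was not tested.

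EIF2AK3 encodes PERK, the ER kinase for eIF2. Its levels were 24.6 and 21.7 TPM with DMSO and 20.0 and 20.3 TPM with barasertib, close together but without overlap. The log2 change was -0.19 (95% interval -0.39 to 0.02, limma adjusted p = 0.141), and -0.30 after median-of-ratios scaling (limma adjusted p = 0.0494), the scaling that adds it to the genes called lower. It spans chr2:88856258-88927094 (ID 9451) and overlaps an antisense gene, EIF2AK3-AS1, which stood at no more than 0.35 TPM. Summed, the 3 sensors held 56.8 and 58.2 TPM with DMSO and 42.6 and 43.2 TPM with barasertib.

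XBP1, the transcription factor gene of the IRE1 arm, fell while ERN1 did not pass the test. It was at 283 and 269 TPM with DMSO and at 211 and 219 TPM with barasertib, and the groups lay well apart. The log2 change was -0.36 (95% interval -0.47 to -0.24, limma adjusted p = 0.00419), and it stayed called under all 17 alternatives run. The files give levels per gene, so spliced and unspliced XBP1 messages were not told apart. XBP1 (ID 7494) spans chr22:29190548-29196560. Its promoter is shown because it holds the ER stress response element (ERSE), the composite sequence of CCAAT and CCACG separated by 9 bases, at which the factor NF-Y is known to bind together with ATF6. The window runs from 250 bases before to 50 bases after the transcription start, on the minus strand of chr22:28800520-28800819 in GRCh38.p14, and was taken from RefSeq. The ERSE is in capitals.
XBP1: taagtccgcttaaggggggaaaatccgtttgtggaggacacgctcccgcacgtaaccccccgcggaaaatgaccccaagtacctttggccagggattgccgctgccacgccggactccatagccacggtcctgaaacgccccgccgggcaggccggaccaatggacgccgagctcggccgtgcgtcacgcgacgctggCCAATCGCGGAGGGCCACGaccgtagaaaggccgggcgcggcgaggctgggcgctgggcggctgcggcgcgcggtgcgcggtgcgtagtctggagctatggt
Both strands were searched in 35116 such windows, and 27 of them, or 0.0769%, hold the element. Windows were listed for 9 of the 10 genes, 15 windows in all, with none for NUPR1, and among the 9 the ERSE was found in XBP1 alone.

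Among the genes downstream of PERK, the most abundant, ATF4 and DDIT3, fell by small amounts. ATF4, which encodes the factor whose translation rises when eIF2 is phosphorylated, was at 960.2 and 977 TPM with DMSO and at 799 and 787 TPM with barasertib. It had the highest level of the 10 genes in both groups and fell by 0.29 on the log2 scale (95% interval -0.37 to -0.21, limma adjusted p = 0.00271). DDIT3 encodes CHOP, a factor that promotes cell death under lasting ER stress. Its levels were 387 and 367 TPM with DMSO and 320.0 and 319.6 TPM with barasertib, a log2 change of -0.24 (95% interval -0.34 to -0.13, limma adjusted p = 0.0116). The DDIT3 call was lost without DMSO replicate 1, barasertib replicate 1 or barasertib replicate 2 (limma adjusted p of 0.0539, 0.0569 and 0.0556) and without the mean-variance trend (0.0715), within a range of 0.00315 to 0.0715 over its alternatives. The ratio of DDIT3 to ATF4 was 0.403 and 0.375 with DMSO and 0.401 and 0.406 with barasertib. ATF4 (ID 468) spans chr22:39916564-39918691. DDIT3 (ID 1649) spans chr12:57910371-57914300, and its end overlaps MARS1 on the other strand, which was at 173 and 182 TPM with DMSO and at 173 and 178 TPM with barasertib.

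ATF5 and NUPR1, both known as genes that ATF4 and CHOP act on, fell far more than ATF4 and DDIT3 did. ATF5 encodes a factor related to ATF4 that acts in the stress response of mitochondria as well as the ER. It was at 52.7 and 52.8 TPM in the DMSO libraries, a mean of 52.7 ± 0.0788 TPM (SD, n = 2), and at 18.5 and 16.6 TPM in the barasertib libraries. The log2 change was -1.53 (95% interval -1.71 to -1.35, limma adjusted p = 0.000285), which ranks as the 25th lowest of all tested genes. ATF5 stood at 0.0549 and 0.0540 of the ATF4 level with DMSO and at 0.0232 and 0.0211 with barasertib. It spans chr19:50431959-50437193 (ID 22809), where its start overlaps NUP62 on the other strand. NUP62 was at 62.4 and 59.8 TPM with DMSO and at 62.2 and 58.8 TPM with barasertib. How the authors' summary treated strand was not found in the labels, so reads in the overlap may belong to either gene.

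NUPR1 encodes a small, disordered nuclear protein induced by many stresses. Its levels were 92.7 and 81.2 TPM with DMSO and 19.3 and 20.2 TPM with barasertib, and even the lower DMSO library lay far above both barasertib libraries. The log2 change of -2.08 (95% interval -2.28 to -1.88, limma adjusted p = 0.000139) was the 9th lowest of all tested genes. Its mean read depth per base dropped from 162 and 150.0 to 36.5 and 37.2. NUPR1 (ID 26471) spans chr16:28548662-28550495, and no other gene ID of the files overlaps it.

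ATF3 and PPP1R15A rose. ATF3 encodes a factor that is induced by ATF4 and also, like an immediate early gene, by growth and stress signals. It was at 54.3 and 56.0 TPM with DMSO and at 68.4 and 69.6 TPM with barasertib, so both barasertib libraries lay above both DMSO libraries. The log2 change was 0.32 (95% interval 0.19 to 0.45, limma adjusted p = 0.00910). It was 0.20 after median-of-ratios scaling with factors from the tested genes (limma adjusted p = 0.0396) and 0.19 with factors from all genes (0.0514), the one alternative that ended the call, in a range of 0.00392 to 0.0514. ATF3 (ID 467) spans chr1:212738676-212794119. Its ratio of coverage to FPKM was 23.9% to 24.1% of the library maximum, the lowest of the 10 genes, and with coverage in place of TPM its log2 change was 0.26 (limma adjusted p = 0.0279).

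PPP1R15A encodes GADD34, the inducible subunit that directs a phosphatase to eIF2 and so ends the PERK signal. It was at 21.2 TPM in both DMSO libraries and at 26.0 and 27.2 TPM with barasertib. The log2 change was 0.31 (95% interval 0.14 to 0.48, limma adjusted p = 0.0203), but with each of the 4 libraries left out in turn it missed the threshold (limma, adjusted p from 0.0573 to 0.0802), as it did under the other scalings. After median-of-ratios scaling the adjusted p was 0.0817, or 0.102 with factors from all genes, and after quantile normalisation it was 0.0632, against a lowest value of 0.0136 over the alternatives. PPP1R15A (ID 23645) spans chr19:49375649-49379319. Short matches in the promoter windows of these members are shown with the matched bases in capitals. The PPP1R15A match is the cyclic AMP response element TGACGTCA, at chr19:48872363-48872370 of GRCh38.p14 and found in 1.85% of windows, and that of ATF3 is TGATGNAA, a core of the composite site of ATF4 and its C/EBP partners, at chr1:212565216-212565223 and found in 3.62% of windows.
PPP1R15A: ttcgTGACGTCAgcac
ATF3: aggaTGATGGAAggct
Of 424 tested genes with the first sequence, 123 were called higher and 25 lower, and of 287 with the second, 57 and 41. The background among the 10907 tested genes with a window was 22.5% higher and 7.61% lower.

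**Figure D2:**
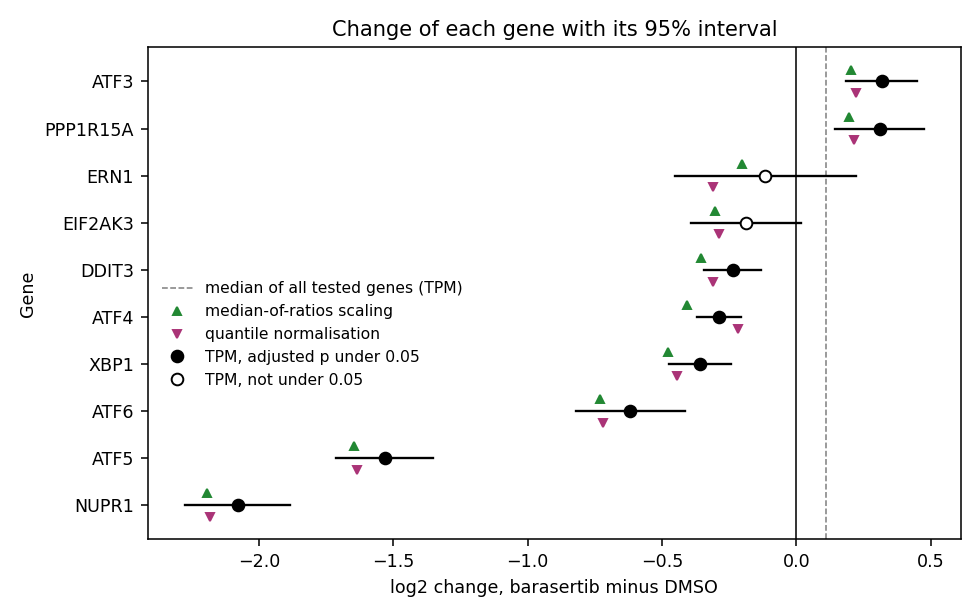
Log2 change of each gene, barasertib minus DMSO, with its 95% interval in TPM (circles, filled where the adjusted p was under 0.05) and its value under 2 other scalings (triangles). The points run from -2.08 for NUPR1 to 0.32 for ATF3, and the dashed line marks the median of all tested genes, 0.11.

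The order of the levels differed between the groups. With DMSO it was ATF4, DDIT3, XBP1, NUPR1, ATF3, ATF5, ATF6, EIF2AK3, PPP1R15A and ERN1, with no overlap between the libraries of neighbours. EIF2AK3 and PPP1R15A came closest, at 21.7 against 21.2 TPM. With barasertib the first 3 and the last held their places, but NUPR1 stood 8th and ATF5 9th. EIF2AK3, ATF6 and NUPR1 then overlapped with their neighbours, all between 19.3 and 20.3 TPM. Both orders are those of TPM and depend on that measure. By mean read depth per base, ATF3 lay below ATF6, EIF2AK3 and PPP1R15A in both groups, at 24.1 and 26.0 with DMSO and 32.8 and 32.4 with barasertib. Among all tested genes, the percentile of level went from 86.1 to 50.1 for NUPR1, from 76.6 to 47.4 for ATF5 and from 63.6 to 50.4 for ATF6, while ATF4 lay at 99.0 and 98.9.

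The genes that activate, bind or counteract the members changed in part. As background, 7.44% of all tested genes were called lower and 22.0% higher in TPM, with 11.4% to 13.6% lower under the other scalings. Of 11 tested genes for ATF6 processing and partners, 3 fell and 0 rose by limma, with 1 higher at an unadjusted p under 0.05. The same 3 fell under all 4 scalings. They were CREB3L2, a membrane-bound factor cut like ATF6 (25.1 and 25.1 TPM with DMSO, 16.4 and 17.2 with barasertib), CREB3L4 of the same family (45.0 and 41.9, then 35.9 and 36.9) and NFYA, a subunit of NF-Y (17.4 and 17.0, then 12.0 and 14.4). Without any 1 of the 4 libraries, 1 or 2 genes of the list were called lower. The list median was -0.13. ATF6B, the paralog of ATF6, was at 63.6 and 62.2 TPM with DMSO and at 56.6 and 51.0 TPM with barasertib (log2 change -0.22, limma adjusted p = 0.0548), and the proteases MBTPS1 and MBTPS2, which cut ATF6, did not pass the test. The ratio of ATF6 to ATF6B was 0.458 and 0.532 with DMSO and 0.346 and 0.396 with barasertib.

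Around IRE1, DNAJB9 was the one of 7 tested partners that passed. With 7.44% of all tested genes called lower and 22.0% higher, a count of 1 lower in 7 is near the background. DNAJB9, an ER co-chaperone that holds IRE1 inactive and is itself induced by XBP1, fell from 37.4 and 38.5 TPM to 25.9 and 29.4 TPM (log2 change -0.44, limma adjusted p = 0.0108). RTCB, the ligase that joins the XBP1 exons, was at 107 and 115 TPM with DMSO and at 117 and 114 TPM with barasertib. None rose by limma, with 3 higher at an unadjusted p under 0.05, and the list median was 0.06. Of 5 tested messages known to be cut by IRE1 in cells, COL6A1, a collagen gene, rose from 56.3 and 52.4 to 83.5 and 69.6 TPM (limma adjusted p = 0.0147), a count of 1 that is near the 22.0% called higher over all tested genes. The remaining 4 did not pass, with 0 lower at an unadjusted p under 0.05, and BLOC1S1, the best known of these messages, was at 59.9 and 51.7 TPM with DMSO and at 52.1 and 53.6 TPM with barasertib. Without barasertib replicate 1, 0 of these 5 passed, and without DMSO replicate 2, 2 rose.

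In the eIF2 list, 6 of 17 genes fell and 3 rose, against 7.44% and 22.0% of all tested genes, so the count of rises was near the background. The list median was 0.06. Under all 4 scalings the 6 fell and 2 rose, EIF2S1 and EIF2B3, while the call of EIF2B1 was lost under at least 1 scaling. Without the mean-variance trend, only 2 genes of the list were called lower, where 4.84% of all tested genes were. DNAJC3, an ER co-chaperone known as an inhibitor of PERK, had the largest change, from 51.7 and 51.6 TPM with DMSO to 26.7 and 27.4 TPM with barasertib (log2 change -0.91, limma adjusted p = 0.000549). EIF2S3, the gamma subunit of eIF2, fell from 459 and 463 to 329 and 342 TPM, while EIF2S1, the alpha subunit that the kinases phosphorylate, rose from 45.9 and 46.8 to 58.7 and 60.4 TPM. EIF2B3 and EIF2B1, subunits of the exchange factor that phosphorylated eIF2 blocks, rose at log2 changes of 0.48 and 0.32. Of the other eIF2 kinases, EIF2AK1 (the heme-regulated kinase) fell from 114 and 118 to 94.7 and 100.1 TPM (limma adjusted p = 0.0198). EIF2AK2 (PKR) and EIF2AK4 (GCN2) did not pass (limma adjusted p of 0.402 and 0.527). PPP1R15B, the constitutive counterpart of PPP1R15A, was at 48.9 and 49.8 TPM with DMSO and at 49.3 and 52.1 TPM with barasertib, so the ratio of PPP1R15A to PPP1R15B was 0.433 and 0.427 with DMSO and 0.526 and 0.522 with barasertib. Without DMSO replicate 2 or barasertib replicate 1, 3 genes of the list fell.

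In each of the 3 target lists every called gene fell, where 7.44% of all tested genes were called lower and 22.0% higher. All 10 ATF6 targets fell, under all 4 scalings and without any 1 of the 4 libraries, with a median of -1.32 (limma, 0 higher at an unadjusted p under 0.05). PDIA4, a disulfide isomerase, fell from 2345 and 2411 to 526 and 543 TPM, and HSP90B1, the ER chaperone of the Hsp90 family, from 3424 and 3389.9 to 943 and 989 TPM. HSPA5, the ER Hsp70 that holds the 3 sensors inactive, fell from 2869.9 and 3002 to 945 and 1020.5 TPM, and SDF2L1, a partner of ER co-chaperones, from 175 and 171 to 69.8 and 63.1 TPM. Summed, the ATF6 targets held 13223 and 13174 TPM with DMSO and 4286 and 4545 TPM with barasertib. ATF6 itself changed less on the log2 scale, by -0.62, than any of the 10, which ranged from -0.80 (HERPUD1) to -2.15 (PDIA4). All 3 target lists were written with results of these data in view, so their direction is no independent evidence.

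Of 16 XBP1 targets 10 fell and 0 rose, against 7.44% and 22.0% of all tested genes (limma). The list median was -0.30, the 10 fell under all 4 scalings, and 0 were higher at an unadjusted limma p under 0.05. The largest changes were those of DNAJB11, an ER co-chaperone (631 and 632 TPM, then 302 and 324), PDIA6, a disulfide isomerase (1765 and 1775, then 876 and 901), SEC24D, a coat protein of ER export (50.2 and 53.4, then 28.2 and 28.1), and SYVN1, the ligase of ER-associated degradation (97.1 and 90.6, then 56.4 and 50.9). DERL1 stood apart in one library, at 51.0 and 16.8 TPM with DMSO and at 48.4 and 48.5 TPM with barasertib, and did not pass (limma adjusted p = 0.28). Without any 1 of the 4 libraries 7 or 8 fell, and without DMSO replicate 1, 1 rose.

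Of 22 tested ATF4 and CHOP targets 14 fell and 0 rose, against 7.44% and 22.0% of all tested genes (limma). The list median was -0.37, the 14 fell under all 4 scalings, and 1 was higher at an unadjusted limma p under 0.05. ALDH1L2, a folate enzyme of mitochondria, fell from 18.3 and 17.0 to 7.39 and 9.11 TPM. TRIB3, a pseudokinase that restrains ATF4, fell from 94.5 and 94.1 to 47.5 and 44.9 TPM, SLC7A5, an amino acid transporter, from 341 and 344 to 175 and 166 TPM, and PCK2, the mitochondrial PEP carboxykinase, from 192 and 176 to 101 and 98.1 TPM. CHAC1, which degrades glutathione, fell little, from 124 and 131 to 108 and 114 TPM (log2 change -0.20, limma adjusted p = 0.0423). The death genes BBC3 and BCL2L11 did not pass (limma adjusted p of 0.541 and 0.406), and TNFRSF10B, a death receptor gene that CHOP activates, fell by 0.24 on the log2 scale. Without any 1 of the 4 libraries 10 to 12 fell, and without DMSO replicate 1, 1 rose. The 3 target lists differ in size and level, and the difference between their medians was not tested.

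**Figure D3:**
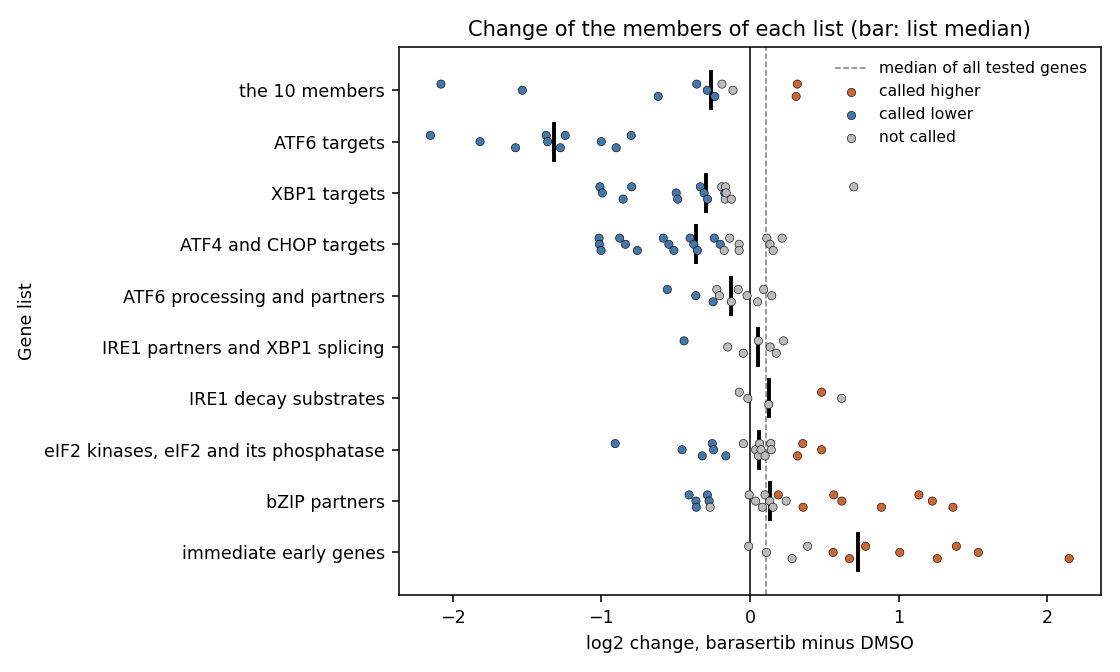
Log2 change of every tested member of each list (points, coloured by call) with the list median (bar) and the median of all tested genes (dashed line). The ATF6 targets lie between -2.15 and -0.80, whereas the immediate early genes reach 2.15 and have a median of 0.72.

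ERSE matches beyond XBP1 were found in 7 other genes of the lists, 4 of them ATF6 targets. The element of each is shown, with its position in GRCh38.p14 and the matched bases in capitals, to be set beside that of XBP1, 52 bases upstream of its start site. Where the capitals begin with CGTGG the element lies in the reverse direction.
HSPA5, chr9:125241391-125241409, 66.0 bases upstream of the start site: ttcaCCAATCGGCGGCCTCCACGacgg
HSP90B1, chr12:103930216-103930234, 194.0 bases upstream of the start site: ctgaCCAATCGGAAGGAGCCACGcttc
HSP90B1, chr12:103930321-103930339, 89.0 bases upstream of the start site: ggtgCGTGGTGCGGCGCGATTGGtggg
CALR, chr19:12938384-12938402, 225.0 bases upstream of the start site: cacgCGTGGTCGACCATCATTGGtcgg
CRELD2, chr22:49918554-49918572, 80.0 bases upstream of the start site: ctctCGTGGCGAACTCGGATTGGgcca
PDIA6, chr2:10812853-10812871, 86.0 bases upstream of the start site: cggaCCAATGAGCCGCAGCCACGgctt
SERP1, chr3:150546710-150546728, 232.0 bases upstream of the start site: catgCGTGGAGACAGCGAATTGGtgtt
EIF2A, which shares a two-way promoter with SERP1, holds the same genomic element as SERP1 and is not listed again. Of all 16 tested genes with an ERSE in a window, 13 fell and 0 rose (limma, 0 higher at an unadjusted p under 0.05), with a median of -0.59. Among all tested genes with a window 7.61% were called lower and 22.5% higher. Of the 8 that are in no list here, 5 fell: ERO1B, an ER oxidase (log2 change -1.10), CANX, the membrane chaperone calnexin (-0.82), TMEM120A (-0.61), ALG12, a mannosyltransferase of the ER (-0.58), and FICD, which modifies HSPA5 (-0.45). TRIM5, NLRP4 and ZNF17 did not pass. The related ERSE-II, ATTGG and CCACG separated by 1 base, was found in 0.0541% of windows. Of 16 tested genes with it 6 fell and 2 rose, and the ATF6 targets SDF2L1, HYOU1 and HERPUD1 were among the 6. Of the 13 that are in no list here, 3 fell (NAV2, NUCB1 and PLS3) and 2 rose (RUVBL2 and SHCBP1). A match is a description of the sequence, and binding was not measured.

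**Figure D4:**
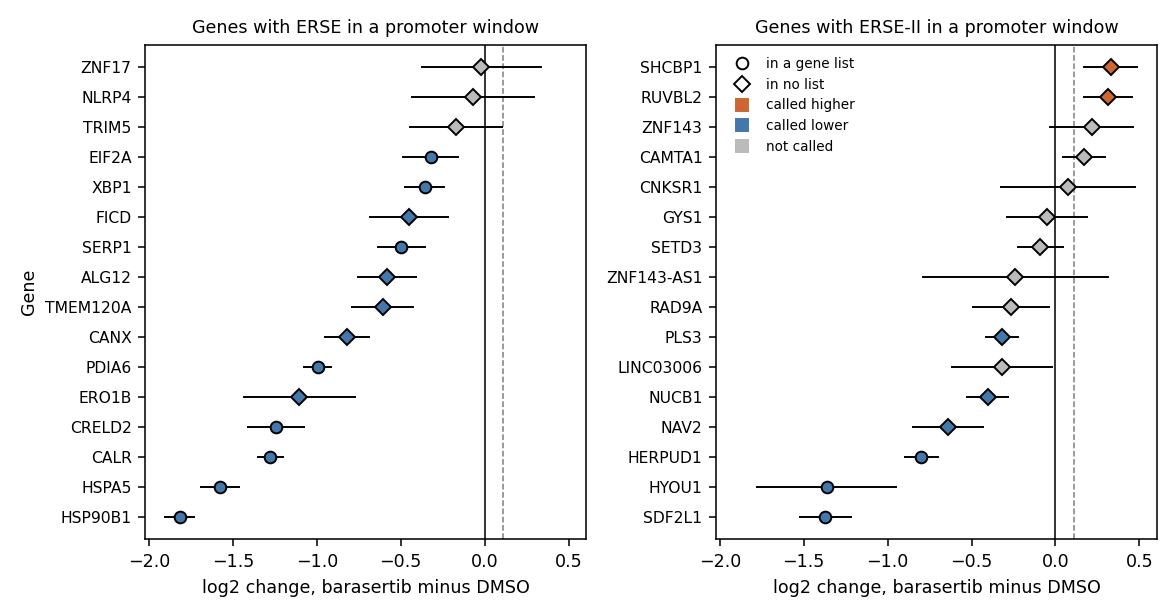
Log2 change with its 95% interval of the tested genes with an ERSE (left) or ERSE-II (right) in a promoter window, as circles for genes in a list and diamonds for genes in none, coloured by call. On the left, 13 of 16 genes are called lower, and on the right 6 of 16; the dashed lines mark the median of all tested genes.

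Of 21 tested bZIP genes, whose products pair or share targets with ATF4 and ATF3, 8 rose and 5 fell, against 22.0% and 7.44% of all tested genes. Their median of 0.13 was close to the 0.11 of all tested genes. Under all 4 scalings 3 rose, namely JUN, FOS and FOSL1, and 5 fell. FOSL1 had a DMSO mean of 0.923 TPM and reached the filter of 1 TPM only through the barasertib libraries, so its rise carries no weight. Those that fell included CEBPB and CEBPG, C/EBP partners of ATF4 and CHOP (88.8 and 87.2 TPM, then 70.9 and 65.5, and 81.1 and 79.4 TPM, then 59.7 and 60.6), as well as JDP2, ATF2 and NFE2L1 at log2 changes of -0.36, -0.29 and -0.28. Those that rose included JUN, a partner of ATF3, from 27.3 and 24.2 to 57.2 and 58.2 TPM, FOSL1 from 1.06 and 0.788 to 4.91 and 3.14 TPM, FOS from 2.09 and 1.24 to 5.85 and 4.55 TPM and JUNB, whose call was lost under at least 1 other scaling, from 2.01 and 1.66 to 5.35 and 3.30 TPM. Without DMSO replicate 1, DMSO replicate 2, barasertib replicate 1 and barasertib replicate 2 in turn, 5, 4, 2 and 5 rose and 3, 4, 3 and 5 fell.

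ATF3 and PPP1R15A are also known among genes that respond early to growth and stress signals. Whether their rises are part of such a response was not tested. Of 12 tested immediate early genes, 8 rose and 0 fell (limma, 0 lower at an unadjusted p under 0.05), all 8 under all 4 scalings. For comparison, 22.0% of all tested genes were called higher and 7.44% lower, with 11.0% to 12.0% higher under the other scalings. The list was chosen with earlier results of these data known, so its direction is no independent evidence. EGR1 rose from 3.72 and 2.99 to 19.7 and 16.9 TPM, IER3 from 6.01 and 6.02 to 20.1 and 18.7 TPM, CCN1 from 12.6 and 12.9 to 35.4 and 34.6 TPM and GADD45B from 5.56 and 6.25 to 15.8 and 15.2 TPM. These changes, log2 values of 1.26 to 2.15, were larger than the 0.32 of ATF3 and 0.31 of PPP1R15A, and the difference was not tested. Without any 1 of the 4 libraries 6 to 9 of them rose.

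Genes with the most similar profile over the 4 libraries were found by the distance between centred log2 values. Nearest to XBP1 were RNF41 and RBMX, at distances of 0.0122 and 0.0261, and nearest to ATF3 were SNRNP27 and ORC6, at 0.0101 and 0.0137. NUPR1 had no such close match, its nearest being MIR3652 and PDIA4 at 0.163 and 0.177. MIR3652, at 2188 and 2166 TPM with DMSO and 515 and 575 TPM with barasertib, lies within HSP90B1 on chr12, so reads of that gene may be counted in it. With 4 libraries in 2 groups, such a profile is mostly the size of the group difference.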

How the data were processed

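Per the submitters' processing notes, HISAT2 and StringTie were used with hg19; versions and options were not given in the sources used here. The mRNA kit keeps strand, per the labels' protocols. TPM, FPKM and coverage (mean signal per base) were deposited for each gene row, per the file headers. Rows were summed per Entrez ID, and 27559 of 27685 IDs received symbols from RefSeq (GRCh38.p14, also the source of promoter windows).

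limma 3.58.1 (R 4.3.3) tested the 13938 genes whose mean was 1 TPM or more, on log2(TPM + 1). The model held the group alone and a mean-variance trend, tests were two-sided with Benjamini-Hochberg adjustment, the threshold was 0.05, and intervals are limma's 95% intervals. The fit was tested on simulated data, 5 runs with 200 changed genes each. It recovered 66.4% of 1.5-fold and 91.2% of 2-fold changes, and smaller changes were not simulated. Of its calls 7.99% fell on unchanged genes, more than the threshold of 0.05 allows for. In the measured libraries 29.5% of tested genes were called, and whether these rates hold at such a share was not tested. Python 3.11.15 and matplotlib 3.10.9 made the tables and plots.

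The members and lists were chosen with earlier results of these data known. Genes named by rule are the members, up to 4 called genes per list with the largest change and no overlap between groups, called genes of the opposite direction, and the 2 nearest profiles of XBP1, NUPR1 and ATF3. Paralogs, overlapping genes, genes with a promoter element and other list members were named after their values were seen. Lists are described by counts and medians, with no list test. Alternatives were other filters, pseudocounts, scalings and moderation, FPKM, a replicate block, the largest row per ID and each library left out. Coverage in place of TPM and scaling factors from all genes were added after the data were seen. The 4 scalings are TPM, both median-of-ratios versions and quantile normalisation.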

Additional observations from a re-analysis of the deposited data

How the results depend on the processing

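Of the 10 genes, XBP1, ATF6, ATF4, ATF5 and NUPR1 stayed called lower under all 17 alternatives run, and ERN1 was called under none of its 16. No gene changed direction, but not every alternative could have shown a change. Other filters, other moderation, the replicate block and the largest row per ID leave each member's log2 change as it was. EIF2AK3 was called lower with either median-of-ratios scaling (log2 change -0.30 and -0.32). Members called higher, 2 in TPM, numbered 1 after median-of-ratios scaling, 0 with factors from all genes, 1 after quantile normalisation and 1 without any one library. Members called lower, 6 in TPM, numbered 5 to 7 under the alternatives. Over all genes, those called higher, 3071 in TPM, numbered 1668, 1534 and 1649 after those 3 scalings, and those called lower, 1037 in TPM, numbered 1721, 1891 and 1590, or 674 without the mean-variance trend. Without one library 1365 to 2181 were higher and 601 to 699 lower. With the replicate block 3218 were higher and 1080 lower, 2 and 6 of the members, and no member's call changed. The deviations of same-numbered libraries from their group means correlated at r = 0.0229 across tested genes. With 2 libraries per group this shows no shared component, but it cannot exclude that they were handled as pairs. The list counts moved by more than 1.5 times in 29 of 306 cases, but many of the 306 are counts of 0 that stayed at 0. Small lists moved more. ATF6 processing genes called lower, 3 in TPM, numbered 1 without a filter and 7 with factors from all genes. The bZIP genes called higher, 8 in TPM, numbered 3 after quantile normalisation. With 2 libraries per group, an exact permutation test of a single gene cannot reach 0.05, so each call leans on the spread pooled over genes, and leaving out a library assumes that the lone one varies like the other group.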
